A study of Mus musculus with 11 samples.

Results

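Alveolar macrophages of the mouse lung were taken here as the cells that pass 3 counts of unique molecular identifiers (UMIs, each standing for 1 captured RNA molecule). A cell was chosen by at least 5 UMIs of Chil3, at least 2 UMIs summed over Plet1, Krt79, Siglecf and Ear1, and fewer than 10 UMIs summed over Gpnmb, Spp1 and Ctsk. Only barcodes holding 1000 to 30000 UMIs, of which no more than 14% were mitochondrial, were read; 69267 of 81983 barcodes met this. Of these, 830 cells were chosen. The 8 genes of the rule were used to choose the cells, so their levels are given as a description and were not tested; the shares of cells that pass its counts are compared between genotypes, which the rule did not use.

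The study placed a mouse telomerase gene in p21-positive cells and followed lung capillaries and emphysema in old mice. Single cells of the whole lung were profiled in 11 libraries of 4 groups, without any sort for a cell type: 1 library of WT (+/+), 3 of p21 heterozygotes (+/-; here p21Het), 5 of p21 mTert (+/mTert; here p21mTert) and 2 of p21 mTertCD (+/mTertCD; here p21mTertCD). The last 3 groups thus each keep 1 unmodified p21 allele, and the labels do not spell out CD or name a promoter. All titles give an age of 18 months, while the age label gives 19 months for p21Het_1 and 20 months for p21mTert_1. The labels form 2 sets. WT_1, p21Het_1 and p21mTert_1 have no replicate number in their title, and the other 8 libraries have one (here numbered libraries). WT lies only in the first set and p21mTertCD only in the second, so a difference between them cannot be told apart from the label set. The labels name no treatment, and the labels do not say whether each library came from 1 animal, so the p-values measure the spread between libraries only.

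Alveolar macrophages live on the air side of the lung surface, where they take up inhaled particles and break down used surfactant, a lipid film made by alveolar type 2 cells. GM-CSF made by those epithelial cells, TGF-beta and the lipid-sensing transcription factor Pparg maintain them. Chil3 encodes the secreted chitinase-like protein Ym1, Plet1 a surface protein, Krt79 a keratin, Siglecf a sialic-acid-binding receptor and Ear1 an eosinophil-associated ribonuclease. Gpnmb, Spp1 and Ctsk, which the rule limits, are lysosomal, matrix and protease genes of lipid-laden or activated macrophages. Ear1 and Ear2, like Chil3 and Chil4, are near-identical copies, and their UMIs may be split between the copies.

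Chil3 has a count of its own in the rule, so its start region is shown. The gene lies on chromosome 3 from 106147554 to 106167564 on the minus strand (build GRCm38). The 250 bases before its start site, from RefSeq for GRCm38.p6 (chr3:106167565-106167814, minus strand), are printed 5′ to 3′ with the match to the STAT-type motif TTCNNNGAA in capitals; the motif is its own reverse complement, so both strands were searched at once.
Chil3: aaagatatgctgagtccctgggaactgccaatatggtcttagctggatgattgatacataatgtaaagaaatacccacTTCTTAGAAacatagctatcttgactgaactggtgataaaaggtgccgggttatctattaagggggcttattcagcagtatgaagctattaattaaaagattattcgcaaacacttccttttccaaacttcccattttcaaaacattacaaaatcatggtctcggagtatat
The match TTCTTAGAA began 172 bases before the start site. The same motif was found in 7.02% of 32851 promoters of this length (2306 promoters), and in 1 of the 8 rule genes, Chil3 itself. A match is a run of letters and no evidence of binding.

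The chosen cells did not all carry the genes of a macrophage. Fcer1g and Tyrobp encode the signalling adaptors that myeloid cells share, and 604 of the 830 chosen cells had at least 5 UMIs of the pair. The other 226 had fewer, and 118 of these had none. Those 118 had a median depth of 18686.5 UMIs, and the 108 with 1 to 4 had 4751.5 UMIs. The median depth of cells under 5 was 14313 UMIs in p21Het_2, 15945 UMIs in p21mTertCD_1 and 2162 to 11747 UMIs elsewhere. In adaptor-rich cells the library medians were 10417 to 20772 UMIs. The limit is a count, so shallow cells can fall under it, and the part of depth was not tested. The 226 cells held less Chil3, with a median of 7 UMIs against 127 UMIs in the 604 cells. Pooled over libraries, their median depth was 12612 UMIs against 14303 UMIs per cell. Their summed UMIs carried genes of surfactant-making type 2 cells: the list of Sftpc, Sftpb, Sftpa1, Sftpd, Lamp3 and Slc34a2 had a median of 66870 CPM over the libraries (CPM is the UMIs of a gene per 1000000 UMIs of the summed cells), against 838 CPM in the 604 cells. In 4 libraries that list was low in the cells under 5 adaptor UMIs, at 500 CPM in p21mTert_3, 637 CPM in p21mTertCD_2, 1431 CPM in WT_1 and 2036 CPM in p21mTert_5. The B cell list stood at 2733 CPM in the first, the T cell list at 1168 CPM in the second and the airway list at 24716 CPM in the last, while the 3 such cells of WT_1 held a median of 65 Chil3 UMIs. The data thus go against the name alveolar macrophage for these 226 cells as a set, though not in every library, and results are given for all 830 chosen cells and for the 604 with at least 5 adaptor UMIs, here called adaptor-positive cells. That second set was defined after the values were seen.

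The share of adaptor-positive cells followed the Chil3 count. Among chosen cells with 5 to 9 Chil3 UMIs, 36 of 184 were adaptor-positive, as were 33 of 74 with 10 to 19 and 56 of 81 with 20 to 49. Of those with 50 to 99 Chil3 UMIs 91 of 101 were adaptor-positive, and of those with 100 or more 388 of 390. At the edge of the rule, 117 barcodes that passed the other 2 counts had 4 Chil3 UMIs and 83 had 5; 58 had 9 Gpnmb, Spp1 and Ctsk UMIs and 53 had 10, and 492 had 1 UMI of the Plet1 group and 118 had 2.

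**Figure D1:**
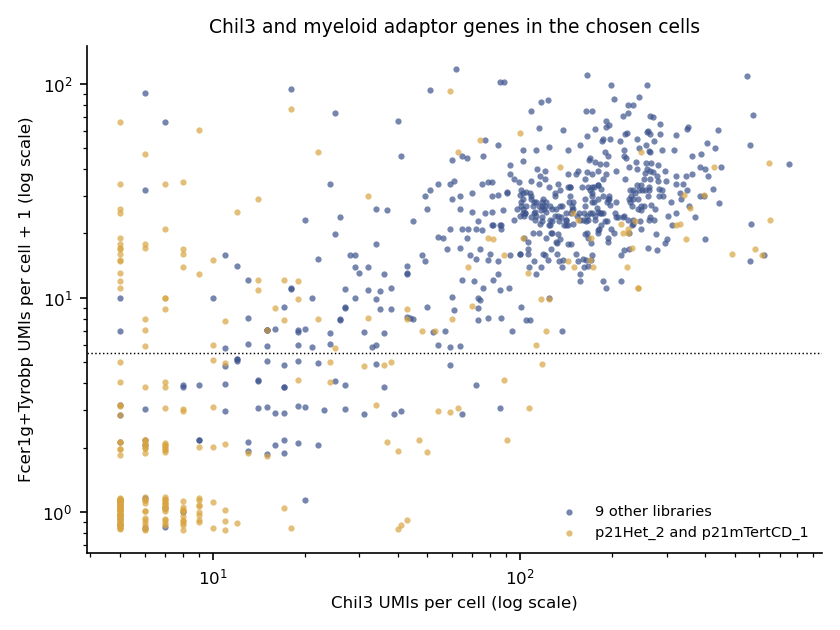
Chil3 UMIs per chosen cell (x, log scale) against the summed Fcer1g and Tyrobp UMIs plus 1 (y, log scale, points spread slightly), 1 point per cell. The dotted line marks 5 adaptor UMIs; of the cells with 100 or more Chil3 UMIs 388 of 390 lie above it, and most cells with 5 to 9 Chil3 UMIs lie below it and come from p21Het_2 and p21mTertCD_1.

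Most cells under 5 adaptor UMIs came from p21Het_2 and p21mTertCD_1. In these libraries 101 of 162 and 59 of 98 chosen cells were under the limit, and the median chosen cell had 8 and 7.5 Chil3 UMIs. Adaptor-positive cells made up 37.7% and 39.8% of their chosen cells, and 74.3% to 96.1% in the other 9 libraries. T cells, taken as barcodes with at least 4 UMIs of the T cell list and none of the B cell list or the Plet1 group, should lack Chil3, yet in p21Het_2 86.7% of 646 T cells had a Chil3 UMI at a median of 4905 UMIs per cell, and 13% had 5 or more. In p21mTertCD_1 85.7% of 1532 T cells had one at a median of 6044 UMIs, and 14.5% had 5 or more. Elsewhere 0% to 0.78% of T cells reached 5 Chil3 UMIs. Summed over the T cells, Chil3 stood at 496 CPM and 381 CPM in these libraries and at 18.6 to 128 CPM in the others. Cells that should lack Chil3 thus reached the limit of 5 UMIs in p21Het_2 and p21mTertCD_1, and both libraries are left out in an alternative of each result below.

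**Figure D2:**
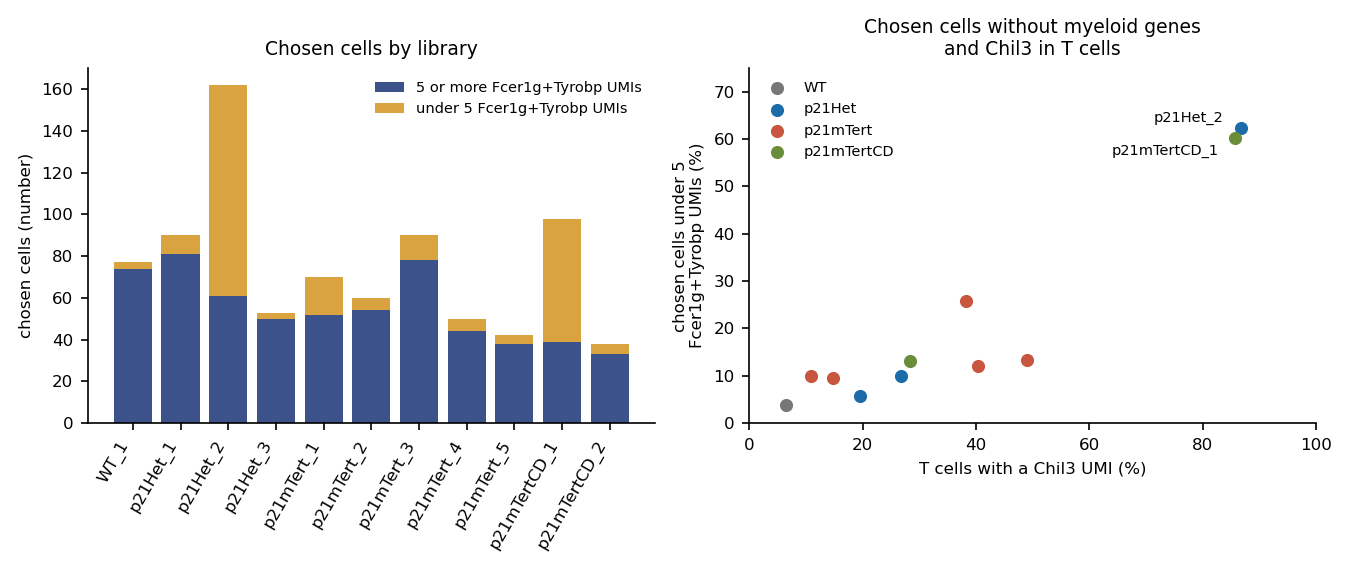
Left, chosen cells per library, split at 5 Fcer1g and Tyrobp UMIs. Right, the share of T cells with a Chil3 UMI (x, percent) against the share of chosen cells under 5 adaptor UMIs (y, percent), 1 point per library coloured by group; p21Het_2 and p21mTertCD_1 stand apart from the other 9 libraries on both axes.

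The 11 libraries held 42038434 to 85988955 UMIs, 5686 to 10525 barcodes and 4721 to 8525 kept barcodes. They gave 38 to 162 chosen cells and 33 to 81 adaptor-positive cells each, with a median of 10390.5 to 20654 UMIs per chosen cell. No barcode sequence of a chosen cell was that of a chosen cell in another library, and 14 of the 830 were kept barcodes of another library. A doublet score marked 17.6% of the chosen cells, 15.1% of the adaptor-positive cells and 24.3% of the rest. Over all kept barcodes it marked 6.12%, and 11.9% of cells that passed the first 2 counts but not the third. Markers of other cells moved with single libraries: the neutrophil list (S100a8, S100a9, Retnlg, Csf3r, Mmp9, Cxcr2) reached 14527 CPM in the adaptor-positive cells of p21Het_3 and 6016 CPM in those of p21mTertCD_1, against 69.2 to 2312 CPM elsewhere. In p21Het_2 the dendritic cell list stood at 342 CPM and the C1q macrophage list at 939 CPM, the highest of all libraries. All 10 genes of that last list but Folr2, which was at 0 UMIs, were detected in adaptor-positive cells.

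To compare genes at a common depth, cells were thinned to 2000 UMIs, which kept 577 of 604 adaptor-positive cells. Of the rule genes Chil3 was seen in 97.2% of them, Plet1 in 79.2%, Ear1 in 54.8%, Krt79 in 47.8% and Siglecf in 17.0%. In 2000 T cells thinned in the same way Chil3 was seen in 23.1% (median depth before thinning 5799 UMIs, against 14869 UMIs); the other 4 genes are at 0 there by the way the T cells were taken. Genes outside the rule also set the adaptor-positive cells apart from the T cells. Ear2 among them is a near-identical copy of the rule gene Ear1, so it is not independent of the rule or of how the T cells were taken. Lyz2, the lysozyme of macrophages, was seen in 98.8%, the tetraspanin Cd9 in 94.3%, the lipoprotein lipase gene Lpl in 88.6%, the cholesterol exporter Abcg1 in 80.1%, the ribonuclease Ear2 in 79.0%, the mannose receptor Mrc1 in 76.3% and Atp6v0d2, a proton pump subunit, in 69.8%. In the same T cells these shares were 29.4% for Lyz2, 9.75% for Cd9, 6.8% for Abcg1 and 1.0% to 1.8% for Lpl, Ear2, Mrc1 and Atp6v0d2. In the chosen cells under 5 adaptor UMIs the shares were lower at a median depth of 17411 UMIs before thinning, with Lpl in 18.9%, Abcg1 in 16.0%, Ear2 in 11.4% and Mrc1 in 9.71%. Lyz2 was still abundant there, at a mean of 11529 CPM over the libraries. Pparg, the master regulator of these cells, was seen in 24.4% of adaptor-positive cells and in 4.0% of the others. The genes define the cells by choice of markers, and no test was made of these shares. They are not particular to the chosen cells. Adaptor-positive cells that passed the first 2 counts but not the third held Chil3, Plet1, Krt79 and Ear1 at a median sum of 25151 CPM. In adaptor-positive chosen cells that sum was 12640 CPM. Mean levels over the limit were 1179 CPM for Mrc1, 1115 CPM for Ear2 and 3556 CPM for Cd9.

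Levels summed per library show how even the adaptor-positive cells were. Chil3 stood at 10729 ± 2081 CPM (SD, n = 11), with a lowest value of 7009 CPM in p21mTert_3, a median of 10272 CPM and a highest value of 13916 CPM in p21Het_3. Plet1 ranged from 677 to 1314 CPM and Ear1 from 199.9 to 1007 CPM, both lowest in p21mTertCD_1. Many identity genes were lowest in p21Het_2, with Mrc1 at 386 CPM against a median of 1113 CPM, Lpl at 866 CPM against 3346 CPM and Cidec, a lipid droplet protein, at 76.8 CPM against 297.5 CPM. Cd74, the chaperone of MHC class II, was highest there at 10573 CPM against a median of 2923 CPM. The genes that varied most from cell to cell in the thinned cells were those of other cells: among adaptor-positive cells S100a9 and S100a8 of neutrophils, Sftpc of type 2 cells and the haemoglobins Hbb-bs and Hba-a1 held ranks 2 to 6 of 5238 genes by the ratio of variance to mean. Rank 1 was Gm42418, a non-coding transcript that overlaps ribosomal RNA.

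The third count of the rule divides a wider population. Cells that passed the first 2 counts numbered 3284, and 2454 of them had 10 or more Gpnmb, Spp1 and Ctsk UMIs. Because the limit is in UMIs, it depended on depth. Among cells with 1000 to 2000 UMIs 91.8% were under the limit, and the share was 72.5%, 51.4%, 31.0% and 16.7% in the next depth ranges, which end at 4000, 8000, 16000 and 30000 UMIs. The 3 genes took 23.8 to 26.7 of each 10000 UMIs at every depth. The median depth was 13954.5 UMIs in the chosen cells and 19560.5 UMIs in the cells over the limit.

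Adaptor-positive chosen cells were compared with the 2430 adaptor-positive cells over the limit (here Gpnmb-high cells), each summed per library, with the library as a block in edgeR's quasi-likelihood test and Benjamini-Hochberg adjustment. The 8 rule genes, Fcer1g and Tyrobp were not read. Of 7985 genes tested, 441 were higher in the chosen cells and 571 lower; that is 5.52% and 7.15% of the tested genes. Both sets were taken from the same cells by UMI counts, so related genes and depth enter the comparison. Restricted to cells of 8000 to 20000 UMIs (8 libraries, median depth 13935.5 against 15802 UMIs), the test called 162 genes higher and 309 lower of 6826, and 926 of the 927 called genes that could be tested again kept their direction, of which 417 were called again. The restricted cells were part of the same cells and still differed in median depth. The kept directions thus cannot decide the part of depth, which was not tested. Leaving out p21Het_1 lowered the count at all depths from 1012 to 652, the lowest of the leave-one-out fits.

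Most tested lysosomal and protease genes were lower in the chosen cells. Of 28 listed genes 26 were tested, 16 were lower and 0 higher (median log2 fold change -0.35, against 0.02 over all tested genes). The aspartic protease gene Ctsd stood at 3271 ± 684 CPM in the chosen cells and 6233 ± 1390 CPM in Gpnmb-high cells, which is -0.90 ± 0.16 (SE) on the log2 scale (adjusted p = 0.0018, edgeR) and was lower in 11 of 11 libraries. Its library values ran from 1996 to 4125 CPM and from 4220 to 8512 CPM, so that the sets did not overlap. The cysteine proteases Ctsl, Ctsb, Ctsz and Lgmn fell by 0.71 to 1.02 on the log2 scale, and Psap, whose product assists lipid-degrading enzymes, fell by 0.60. Lamp1 of the lysosomal membrane and Grn, a progranulin gene, fell by 0.48 and 0.57. In the depth-restricted cells 14 of 25 were lower and 0 higher.

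Of 34 tested genes of lipid uptake and storage 13 were lower, 1 was higher and 20 did not pass (median -0.26 against 0.02). Fabp5 and Fabp4 encode fatty-acid-binding proteins. Fabp5 stood at 255 ± 102 CPM against 879 ± 445 CPM, or -1.67 ± 0.14 on the log2 scale (adjusted p = 2.8e-06, edgeR), and Fabp4 at 227 ± 77.7 CPM against 516 ± 188 CPM. Cd36, a fatty acid and scavenger receptor, fell by 0.73 on the log2 scale, the lysosomal acid lipase gene Lipa by 0.77 and the lipid droplet coat gene Plin2 by 0.52. The cholesterol-synthesis gene Sqle fell by 1.79 and Ch25h, a cholesterol hydroxylase, by 1.54. Pltp, a phospholipid transfer protein, was higher by 0.50 and was the 1 gene of the list in that direction. Under the depth restriction 14 of 33 were lower and 0 higher.

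Of 17 tested iron and redox genes 7 were lower, 2 were higher (Gpx1 and Sod1, each by 0.21 on the log2 scale) and 8 did not pass. The ferritin chains were among the most abundant RNAs of the chosen cells: Fth1 stood at 9948 ± 1915 CPM against 17130 ± 4929 CPM and fell by 0.73 on the log2 scale, and Ftl1 fell by 0.50. Slc7a11, the cystine importer, stood at 7.41 ± 3.65 CPM against 48.3 ± 22.6 CPM. Hmox1, the haem oxygenase, fell by 0.77. Of 19 tested phagocytosis and scavenging genes 8 were lower, among them Cd68, Mertk and Msr1, and 2 were higher, Fcgr1 and Clec4a2. In the depth-restricted cells 7 of 17 iron and redox genes and 5 of 18 phagocytosis genes were lower and 0 of either list higher.

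Identity genes of alveolar macrophages were mixed. Of 25 tested, 9 were lower in the chosen cells and 3 higher (median -0.18 against 0.02). Car4, a carbonic anhydrase, stood at 211 ± 91.8 CPM against 620 ± 219.8 CPM, and the transcriptional repressor Bhlhe41 at 107 ± 31.5 CPM against 189 ± 52.1 CPM. The integrin Itgax, the scavenger receptor Marco, Atp6v0d2, Cd9, F7, Slc7a2 and Cxcr1 were lower too. Ear2, Cidec and Fabp1 were higher, by 0.29, 0.68 and 0.72 on the log2 scale. Among cytokine receptors, Il6ra, Trem1 and Ifngr1 were higher and Tgfbr2, Cd200r1 and Trem2 lower, 6 of 17 tested. Under the depth restriction 7 of 24 identity genes were lower and 1 higher. Csf2ra and Csf2rb, the GM-CSF receptor chains, did not pass the test.

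The largest increase was in Plac8, a gene known from monocytes and granulocytes. It stood at 98.3 ± 129 CPM in the chosen cells and 8.30 ± 4.43 CPM in Gpnmb-high cells (log2 fold change 3.21 ± 0.56, adjusted p = 0.0049, edgeR, higher in 9 of 11 libraries). Its values ran from 4.62 to 379 CPM, so the increase was uneven between libraries. The interferon-inducible Ifitm3 (2.42), the haptoglobin gene Hp (1.58), Lst1, S100a4 (1.49), Ptpn18 (1.41), Ms4a6c (1.38), Pld4 (1.21) and Emb (1.18) followed on the log2 scale, and Napsa, a protease of type 2 cells, was 1.61 higher. Over 18 alternatives Napsa lost its call in 11, S100a4 and Ptpn18 in 10 each, Pld4 in 6, Hp in 3 and Ifitm3 and Lst1 in 1 each. The largest decreases were in the activin gene Inhba (-2.97), the complement gene C4b (-2.84), the prostacyclin receptor Ptgir (-2.69), Mfge8 (-2.42), Cd93 (-2.10), Pla2g2d (-2.01), the growth factor Igf1 (-1.96), the zinc transporter Slc39a2 (-1.88), Cd200 (-1.87) and Plpp3 (-1.86). The classical monocyte list (Ly6c2 and Ccr2 among its genes) had a median of 188 CPM in the chosen cells and 307 CPM in Gpnmb-high cells, the type 2 cell list 838 and 317 CPM, and the neutrophil list 267 and 218 CPM. Single libraries lay far from these medians: the neutrophil list stood at 14527 CPM against 2469 CPM in p21Het_3 and at 6016 CPM against 972 CPM in p21mTertCD_1, and the C1q macrophage list at 939 CPM against 109 CPM in p21Het_2. The part of these cells in the differences was not tested.

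For MHC class II and antigen presentation the median was 1.16 against 0.02 over all tested genes, the farthest from 0 of the 13 lists. Of its 10 tested genes 3 were higher (the transactivator Ciita, H2-DMb1 and Cd80) and 1, Cd274, was lower. H2-Aa stood at 1484 ± 982 CPM against 591 ± 269.9 CPM and did not pass, with its highest value, 3898 CPM, in p21Het_2, where the dendritic cell list stood at 342 CPM against 19.3 CPM. With all chosen cells 7 of 10 were higher and 0 lower (median 1.02), and in the depth-restricted cells 0 of 9 were higher and 1 lower at a median of 1.33, and the 4 genes called at all depths kept their direction. Of 17 tested inflammation genes 4 were lower (Ccl6, Ccl3, Ccl9, Il1a) and Nlrp3 was higher. Ccl6, an abundant chemokine, stood at 2971 ± 472 CPM against 6162 ± 1952 CPM. In the list of p53 targets and senescence 4 of 18 were lower and 2 higher (Btg2, Sesn2): the stress hormone gene Gdf15 fell by 1.40, Cdkn2a by 0.88, Phlda3 by 0.72 and Cdkn1a, the p21 gene, by 0.31 on the log2 scale. Cdkn1a stood at 280 ± 74.9 CPM against 349 ± 61.6 CPM (adjusted p = 0.015, edgeR, lower in 9 of 11 libraries). In the depth-restricted cells 2 of 15 genes of this list were lower and 0 higher; of the 6 genes called at all depths 5 were tested again and 1, Phlda3, was called again, so Cdkn1a, Gdf15, Btg2 and Sesn2 lost their call there. None of 9 telomere genes passed, and 1 of 14 proliferation genes, Stmn1, was lower. Cfp and C5ar1 were higher among 3 tested complement genes (median 0.51).

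When all 830 chosen cells were compared with all 2454 cells over the limit, 744 genes were higher and 645 lower of 8950, and 15.5% of the tested genes were called. The 10 largest increases were in Sec14l3, Krt8, Cldn3, Ptprf, Cldn18, Lamp3, Atp1b1, Cpm, Hes1 and Sfta2, of which the keratin, the claudins, Lamp3 and Sfta2 are known from epithelium. Sec14l3 stood at 233 ± 314 CPM against 5.52 ± 5.79 CPM. The 10 largest decreases were in Fstl1, Inhba, Ptgir, Syngr1, Pla2g2d, Cd93, Mfge8, Igf1, Slc39a2 and Ch25h. Leaving out p21mTert_1, p21Het_2, p21mTertCD_1 or p21Het_1 gave 827, 848, 850 and 902 called genes.

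**Figure D3:**
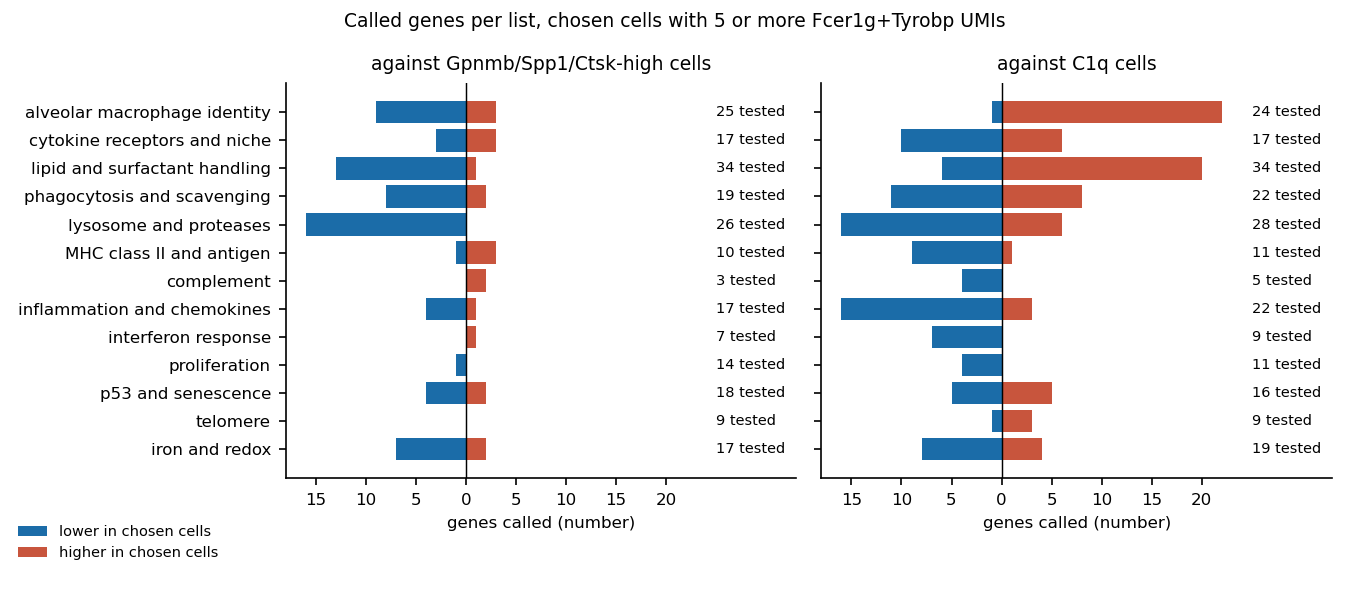
Number of genes called lower (blue, to the left of 0) and higher (red, to the right) in adaptor-positive chosen cells, per gene list, against Gpnmb-high cells (left) and against C1q cells (right). The number tested stands beside each bar. Of the lysosomal genes 16 of 26 were lower against Gpnmb-high cells. Of the identity genes 22 of 24 were higher against C1q cells, which were taken to lack the Plet1 group.

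C1q cells served as the second reference. They had 10 or more C1qa, C1qb and C1qc UMIs, none of Plet1, Krt79, Siglecf and Ear1, fewer than 5 of Chil3 and fewer than 10 of Gpnmb, Spp1 and Ctsk, and 1367 of 1399 were adaptor-positive; macrophages of the lung interstitium express these complement genes. Of 7618 genes tested 2293 were higher in the adaptor-positive chosen cells (30.1%) and 2322 lower (30.5%). With all cells of both sets, 4521 of 8227 (55.0%) were called. The 2 sets are far apart in RNA content, and the fold changes depend on the scaling: Spi1, a myeloid transcription factor, was called lower (-0.18) although its CPM was higher in 9 of 11 libraries.

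The identity list was higher in the chosen cells, with 22 of 24 tested genes higher and 1, Spi1, lower (median 3.24 against -0.0032 over all tested genes). The chosen cells had to hold Chil3 and the Plet1 group, and the C1q cells had to lack that group. A higher identity list thus follows in part from how the sets were taken and is no separate proof of identity. Abcg1 stood at 1304 ± 382 CPM against 54.1 ± 20.6 CPM, 4.36 ± 0.30 on the log2 scale, and Lpl at 3034 ± 992 CPM against 187 ± 101 CPM. Pparg stood at 139 ± 43.5 CPM against 14.3 ± 7.13 CPM, Bhlhe41 at 107 ± 31.5 CPM against 8.85 ± 3.68 CPM, and Car4, Krt19, Fabp1, Olr1 and Slc7a2 were more than 4 log2 units higher. The GM-CSF receptor chain Csf2rb was 1.55 higher, and Csf1r, the receptor of the macrophage growth factor, was 3.44 lower with 99.5 ± 32.2 CPM against 908 ± 210 CPM. The 10 largest increases were Perp, Acaa1b, Cidec, Cpne5, Htr2c, Trim29, Flvcr2, Vstm2a, Kcnn3 and Atp6v0d2, of which Perp was at 125 ± 42.7 CPM against 0.036 ± 0.12 CPM.

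Lipid genes followed, with 20 of 34 higher and 6 lower (median 0.86). Nceh1 (2.54), Fabp4 (2.49), Plin2 (1.35), Soat1 (1.27) and Lipa (0.92) were higher on the log2 scale. Apoe, the apolipoprotein, was lower, at 197 ± 210 CPM against 9834 ± 2098 CPM. Lysosomal genes split, with 6 of 28 higher and 16 lower: Ctsd was 2.43 higher, and Ctsb, Ctsh, Ctsc and Lgmn were among the lower genes. MHC class II and antigen genes were lower in 9 of 11 and higher in 1, Cd274; H2-Aa stood at 1484 ± 982 CPM against 7490 ± 1625 CPM and Cd86 at 25.2 ± 25.8 CPM against 206 ± 32.9 CPM. Inflammation genes were lower in 16 of 22 and higher in 3 (Ccl6, Il18, Il1rn), with Il1b at 136 ± 129 CPM against 1363 ± 415.5 CPM. All 7 called genes among 9 interferon genes were lower, and 4 of 5 tested complement genes outside the rule were lower. The largest decreases were in Folr2, Cxcl13, Fcrls, Cd209f, Il10, Fcna, Cd163, Ccl24, Ccl12 and Ccl8; Folr2 and Il10 had 0 UMIs in the chosen cells, so their fitted fold changes are not given.

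Between genotypes the first question was how many such cells each lung held. Of the kept barcodes 1.41% were chosen cells in WT_1, 1.45%, 1.90% and 0.90% in the p21Het libraries. The p21mTert libraries held 1.13%, 0.80%, 1.43%, 0.80% and 0.89%, and the p21mTertCD libraries 1.49% and 0.68%. The group means were 1.42% ± 0.50 (SD, n = 3), 1.01% ± 0.27 (n = 5) and 1.09% ± 0.58 (n = 2), and the groups overlapped. The 2-sided exact permutation tests gave p = 0.143 for p21mTert against p21Het, p = 0.905 for p21mTert against p21mTertCD and p = 0.50 for p21mTertCD against p21Het (adjusted over these 3 comparisons 0.429, 0.905 and 0.75). The smallest p these designs allow is 0.018, 0.048 and 0.10. Adaptor-positive cells made up 1.35% in WT_1, 0.957% ± 0.307 in p21Het, 0.859% ± 0.218 in p21mTert and 0.592% ± 0.004 in p21mTertCD, where p21mTert and p21mTertCD did not overlap (0.703% to 1.24% against 0.590% to 0.595%) at an exact permutation p of 0.190. With barcodes thinned to 1000 UMIs and the rule scaled to at least 1 Chil3 UMI, at least 1 UMI of the Plet1 group and fewer than 2 of the Gpnmb group, the difference was -0.81 percentage points for p21mTert minus p21Het and -0.87 for p21mTert minus p21mTertCD, at 0.018 and 0.048, the smallest p-values these exact permutation tests can give. A limit of 1 Chil3 UMI is also met by cells that should lack the gene, above all in p21Het_2 and p21mTertCD_1 as the T cells show, and for adaptor-positive cells p21mTert minus p21mTertCD had the other sign, 0.267 percentage points. A share of all cells also moves with the number of other cells recovered, and the single WT library has no replicate.

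The share under the Gpnmb, Spp1 and Ctsk limit did not overlap between p21mTert and p21mTertCD libraries, at a p above 0.05 for all chosen cells. Among cells that passed the first 2 counts, chosen cells were 53.1% in WT_1 (95% exact binomial interval 44.6% to 61.4%), and 29.6%, 20.4% and 27.3% in p21Het. They were 25.5%, 36.6%, 40.5%, 30.9% and 25.6% in the p21mTert libraries and 15.2% and 17.6% in the p21mTertCD libraries. WT_1 was thus the highest library and the p21mTertCD libraries the lowest, with no overlap between p21mTertCD and any other group in all chosen cells. The p21mTert mean of 31.8% ± 6.7 was 15.4 percentage points above the p21mTertCD mean of 16.4% ± 1.7 (exact permutation p = 0.095, adjusted 0.25) and 6.0 above the p21Het mean of 25.8% ± 4.8 (p = 0.25 in the same test). The p21mTertCD mean was 9.4 below p21Het (exact permutation p = 0.20). In adaptor-positive cells the shares were 52.1% in WT_1, 20.9% ± 10.3, 28.8% ± 7.0 and 11.2% ± 6.4. There p21Het_2 stood at 9.04%, between the p21mTertCD libraries at 6.69% and 15.7%, so that p21mTertCD overlapped with p21Het but not with p21mTert, at 20.3% to 37.1%. The difference between p21mTert and p21mTertCD was 17.6 percentage points at p = 0.048, the smallest value that exact test can give, not adjusted for the number of comparisons. Without p21Het_2 and p21mTertCD_1 the difference in all chosen cells was 14.2 percentage points; 1 p21mTertCD library then stands against 5, and the p of 0.167 is the smallest that exact permutation test can give. Median depth per chosen cell was 10390.5 to 11044 UMIs in WT_1, p21Het_1 and p21mTert_1. It was 13646.5 to 20654 UMIs in the numbered libraries, both p21mTertCD libraries among them. The limit depends on depth, and the part of depth and of the label set in the shares was not tested.

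**Figure D4:**
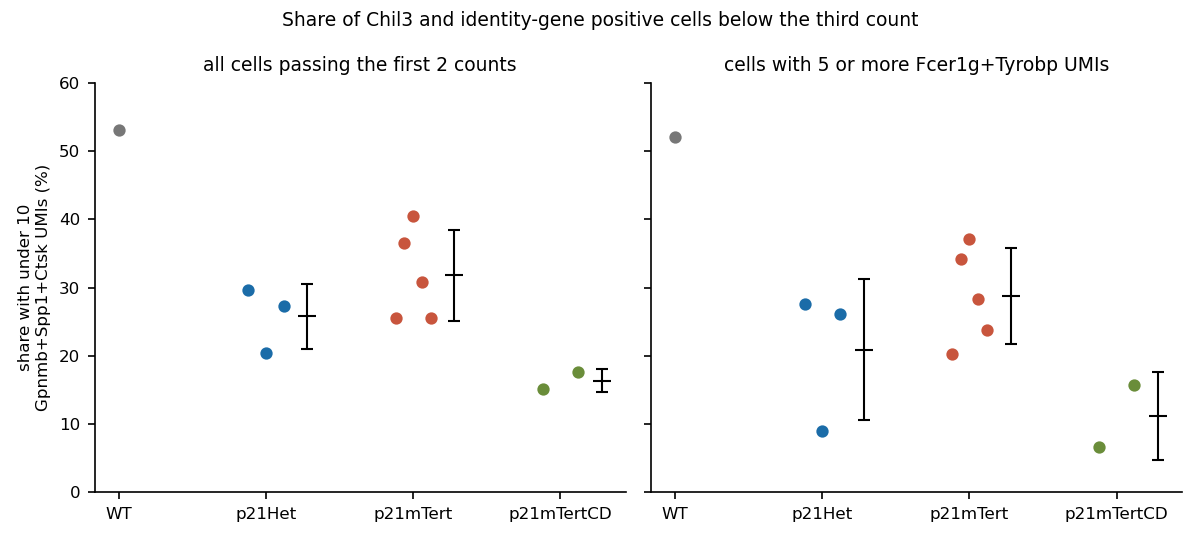
Share of cells under 10 Gpnmb, Spp1 and Ctsk UMIs (y, percent) among cells that pass the first 2 counts, in each library by group (x), for all such cells (left) and for adaptor-positive cells (right); bars show the mean ± SD. WT_1 is the highest library at 53.1% and 52.1%, and the p21mTertCD libraries lie under all p21mTert libraries in both panels.

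Cell-cycle genes were counted next, as a share of cells at a common depth, which does not tell that the other cells were not dividing. After thinning to 2000 UMIs, 15 of 752 chosen cells (2.0%) had at least 2 UMIs over 13 cell-cycle genes. The share was 0% in 5 of 11 libraries and highest in p21mTert_3 with 6.10% (5 of 82 cells) and next in p21Het_2 (5 of 139 cells); without thinning it was 3.33% to 16.3%. Group means were 1.20% ± 2.08 in p21Het, 1.56% ± 2.64 in p21mTert and 2.68% ± 0.38 in p21mTertCD, and the exact permutation p-values of the 3 differences were 1.0, 0.619 and 0.40. In adaptor-positive cells p21Het_2 was highest with 7.27% (4 of 55 cells), followed by p21mTertCD_1 with 5.41% (2 of 37) and p21mTert_3 with 4.11% (3 of 73). The group means there were 2.42% ± 4.2, 1.23% ± 1.84 and 4.32% ± 1.54, at exact permutation p-values of 0.732, 0.0952 and 0.60, so the difference between p21mTert and p21Het changed sign. Free RNA of other cells can enter such counts, and its part was not tested.

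Tert, the telomerase gene the study added, was barely seen. The chosen cells held 17 UMIs of it (chromosome 13, 73626911 to 73649843), of which WT_1 held 0 and the p21Het libraries 0, 2 and 0. The p21mTert libraries held 1, 7, 5, 1 and 0 and the p21mTertCD libraries 1 and 0. Tert UMIs were also found in the Gpnmb-high cells, with 5 in p21Het, 43 in p21mTert, 42 in p21mTertCD and 0 in WT. T cells held 4 in WT, 9 in p21Het, 26 in p21mTert and 29 in p21mTertCD, so Tert UMIs were seen without the added gene as well. The counts were too low for the gene test. Cdkn1a (chromosome 17, 29090976 to 29100727), the gene of p21, was well detected in adaptor-positive cells with 291 CPM in WT_1 and 346.5, 226 and 352 CPM in p21Het. The p21mTert libraries held 246, 289, 279.5, 433 and 203.5 CPM and the p21mTertCD libraries 177 and 231 CPM. The groups overlapped. The labels do not say which stretch of the p21 gene was altered, so these levels do not check the genotypes. The log2 fold changes were -0.06 ± 0.21 for p21mTert minus p21Het (adjusted p = 0.970), 0.48 ± 0.26 for p21mTert minus p21mTertCD (adjusted p = 0.838) and -0.54 ± 0.28 for p21mTertCD minus p21Het (adjusted p = 1.0) by edgeR; the sign of the first turned under some alternatives.

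Few genes passed between genotypes, and their number depended on the tool. In all chosen cells 0 of 9841 genes passed in any of the 3 contrasts by edgeR (0.0% called), with 441, 534 and 124 genes at an unadjusted p under 0.05 for p21mTert against p21Het, p21mTert against p21mTertCD and p21mTertCD against p21Het in this order; DESeq2 called 0, 3 and 0. In adaptor-positive cells 0, 1 and 0 of 8060 genes passed (0.0124% for p21mTert minus p21mTertCD, 0.0% for the others), with 659, 477 and 245 at an unadjusted p under 0.05, and DESeq2 called 17, 8 and 3.

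The 1 called gene was Ifi27l2a, an interferon-inducible gene on chromosome 12 (103442167 to 103443680, minus strand, build GRCm38). It stood at 23.7 CPM in WT_1 and at 82.2, 59.0 and 103 CPM in p21Het. In p21mTert it stood at 38.3, 40.6, 22.6, 44.3 and 32.0 CPM, and in p21mTertCD at 275 and 193 CPM. The p21mTert libraries thus lay under both p21Het and p21mTertCD without overlap. This is a description only, since the share of all tested genes without overlap is not given. Behind these values stood 20 UMIs in WT_1, 21 to 44 in each p21mTert library, 43 to 90 in each p21Het library and 135 and 101 in p21mTertCD. The log2 fold change for p21mTert minus p21mTertCD was -2.78 ± 0.24 (adjusted p = 3.0e-05, edgeR), lower in 5 of 5 p21mTert libraries. For p21mTertCD minus p21Het it was 1.59 ± 0.26 (adjusted p = 0.126), and for p21mTert minus p21Het -1.19 ± 0.23 (adjusted p = 0.326), both by edgeR; DESeq2 called Ifi27l2a in both, as did edgeR without a filter on low counts, with adjusted p of 0.00030 and 0.0095 in the latter. These contrasts share their libraries. In all 830 cells the first was -2.39 with adjusted p = 0.086 by edgeR. There p21Het_2 stood at 37.5 CPM, inside the p21mTert range of 25.5 to 44.4 CPM, while p21mTertCD stood at 168 and 194 CPM.

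Over 19 alternatives the Ifi27l2a difference ran from -3.07 to -2.35, and the call was lost in 2 of them. With likely doublets left out the edgeR adjusted p was 0.392, and with the replicate number as a block it was 1.0. Without p21Het_2 and p21mTertCD_1 together it was -2.40 and the call held, with 1 p21mTertCD library left, which is assumed to vary like the other groups. The level was higher in other cells than in the chosen cells: C1q cells held 201 to 883 CPM and T cells 175 to 664 CPM, the latter in p21mTertCD_1, where T cells stood highest of all libraries; p21mTertCD_2 T cells were at 320 CPM, inside the p21mTert range of 198 to 344.5 CPM. In Gpnmb-high cells p21mTertCD stood at 80.9 and 49.2 CPM and p21mTert at 22.1 to 70.2 CPM, and the groups overlapped. The part of free RNA and of monocytes in the chosen cells was not tested. The classical monocyte list stood at 398 and 749 CPM in p21mTertCD, 255 to 601 CPM in p21Het and 81.4 to 188 CPM in p21mTert.

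Several genes did not pass by edgeR and are named by a rule of smallest p. That rule takes only genes whose group values do not overlap, so the lack of overlap is no result. The share of all tested genes without overlap is not given. DESeq2 called some of the named genes: Mt1, Mt2, Gm47283 and Hist1h2bc for p21mTert minus p21Het, Txnip, Ly6c2 and Ifi209 for p21mTert minus p21mTertCD, and Mt1 and Txnip for p21mTertCD minus p21Het. The metallothionein gene Mt1, which binds zinc and copper, stood at 1069, 689 and 845 CPM in p21Het and at 1384 CPM in WT_1. The p21mTert libraries held 1359, 1349, 1656, 1893 and 1747 CPM and the p21mTertCD libraries 1623 and 1735 CPM. That p21Het lay under both other tested groups follows from the way the gene was picked. In Gpnmb-high cells Mt1 overlapped, with 1685 CPM in p21Het_2 against 1575 to 1953 CPM in p21mTert. In adaptor-positive chosen cells the log2 fold change of Mt1 was 0.90 ± 0.18 for p21mTert minus p21Het (edgeR adjusted p = 0.326). For p21mTertCD minus p21Het it was 1.01 ± 0.21 (edgeR adjusted p = 0.473). By DESeq2 the adjusted p was 4.1e-06 and 0.00038. Mt2 had the same order of group means, at 183 ± 15.8, 383 ± 116 and 439 ± 46.7 CPM. In all chosen cells its p21Het and p21mTert libraries overlapped, with 389 CPM in p21Het_2 against 210 CPM in p21mTert_1 and 320 CPM in p21mTert_2. Gm47283, a gene without a name of its own, stood at 15.1 ± 3.45 CPM in p21Het, 46.5 ± 11.4 CPM in p21mTert and 22.4 ± 11.5 CPM in p21mTertCD (1.62 for p21mTert minus p21Het, edgeR adjusted p = 0.142). T cells had the same order for Gm47283 between p21Het and p21mTert, 49.9 ± 31.2 and 100.5 ± 29.1 CPM, and there the libraries overlapped. They also overlapped in C1q cells, at 26.7 ± 18.1 and 71.3 ± 26.2 CPM. In Gpnmb-high cells they did not, with 28.4, 9.8 and 17.0 CPM in p21Het and 34.1 to 65.7 CPM in p21mTert. The order of Gm47283 was thus not particular to the chosen cells.

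For p21mTert minus p21mTertCD, Txnip, a regulator of glucose uptake, had values of 441 ± 73.0 and 223 ± 35.7 CPM (0.94, edgeR adjusted p = 0.232, DESeq2 adjusted p = 0.0013). In all chosen cells it stood at 489 ± 66.5 and 401 ± 191 CPM. There p21mTertCD_1, at 536 CPM, lay inside the p21mTert range of 382 to 562 CPM. The groups also overlapped in Gpnmb-high cells. Rell1, Ifi209 and Ly6c2 were lower in p21mTert at the same adjusted p. Ly6c2 is known from monocytes and held 6 UMIs in the 5 p21mTert libraries, 55 in p21Het and 59 in p21mTertCD. For p21mTertCD minus p21Het, the interferon-induced chemokine gene Cxcl9 had 9.5, 4.1 and 6.9 CPM in p21Het and 71.4 and 19.1 CPM in p21mTertCD (2.78, edgeR adjusted p = 0.297), on 35 and 10 UMIs in p21mTertCD. The other genes named by the rule were Tcaf1, Hist1h2bc, Sik1, Tmem50b, Avl9 and Bloc1s2 for p21mTert minus p21Het, Fam120b, Gm26802, Rsu1 and Eva1b for p21mTert minus p21mTertCD and Glipr2, Cyb5r1, Psmg3, Mterf3 and Wbp1 for p21mTertCD minus p21Het; their adjusted p by edgeR ran from 0.420 to 1.0.

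**Figure D5:**
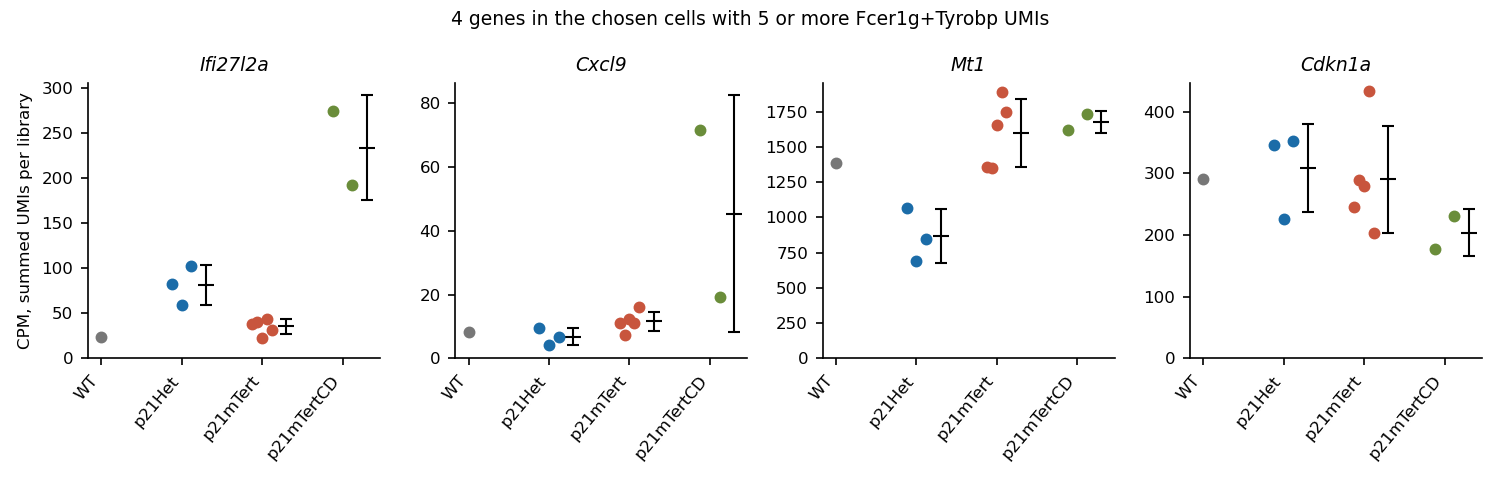
CPM of Ifi27l2a, Cxcl9, Mt1 and Cdkn1a in the summed UMIs of adaptor-positive chosen cells, 1 point per library by group, with the mean ± SD of groups of 2 or more. Ifi27l2a is under 45 CPM in all p21mTert libraries and at 193 and 275 CPM in p21mTertCD; the Cdkn1a groups overlap.

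By edgeR no gene of any list passed between genotypes other than Ifi27l2a, 1 of 8 tested interferon genes in adaptor-positive cells (median log2 fold change -0.45 against -0.0020 over all tested genes, p21mTert minus p21mTertCD). Among others, DESeq2 also called Mt1 and Mt2 for p21mTert minus p21Het and Mt1 for p21mTertCD minus p21Het. Of 24 tested identity genes 0 were called by edgeR; 20 had a log2 fold change above 0 for p21mTert minus p21Het and 21 for p21mTert minus p21mTertCD (medians 0.32 and 0.26), contrasts that share the p21mTert libraries. Mrc1, Lpl and Cidec of this list were lowest in p21Het_2. The C1q macrophage list stood at 939 CPM there and at 622 CPM in p21mTertCD_1, against 13.8 to 169 CPM in the other libraries, and its part was not tested. For 7 tested complement genes the medians were -2.88 and -2.74, with 2 of 7 above 0 in each, and for proliferation genes -0.26 and -0.88, and 0 genes of either list were called by edgeR. The complement list as drawn up holds C1qa, C1qb and C1qc, genes of the C1q macrophage list too. C1qa was seen in 1.39% of the thinned adaptor-positive cells. The part of p21Het_2 and p21mTertCD_1 in the complement medians was not tested. For MHC class II and antigen genes the medians were -1.07 and -0.85, with 2 of 10 above 0 in each. H2-Aa stood at 939 CPM on average in p21mTert, 1939 CPM in p21Het and 2277 CPM in p21mTertCD, and its highest library was p21Het_2 with 3898 CPM. When p21Het_2 was left out, 48 genes were called for p21mTert minus p21mTertCD, H2-Aa, H2-Eb1, Cd74, Itgae and Irf8 among them, genes at home in dendritic cells. The dendritic cell list stood at 141 and 53.5 CPM in p21mTertCD and 7.4 to 38.3 CPM in p21mTert, and its part in these calls was not tested. The lipid, lysosomal and iron lists had medians between -0.08 and 0.15 in all 3 contrasts. Telomere genes had medians between -0.20 and 0.18, with 0 of 9 called, and Dkc1, Nop10 and Nhp2 of the telomerase complex were detected in all 11 libraries.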

How the data were processed

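Whole-lung cells of 11 libraries were profiled by 3' single-cell RNA sequencing (10x Genomics, V2 kit per the labels' protocols). The deposited UMI counts per gene and barcode were made by the authors with Cell Ranger 3.1.0, per the file headers, on build mm10, per the submitters' processing notes; a version other than that is given in the series' design text. No batch or date is given. The 2 label sets differed in the median mitochondrial share per kept barcode. It was 6.30% to 6.58% in the libraries without a replicate number and 2.82% to 4.28% in the numbered libraries. The members and lists were chosen with earlier results of these data known.

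Cells were chosen by the UMI rule given in the report, and their counts were summed per library, using libraries with at least 20 cells in each set for comparisons of cell sets. Genotypes were compared with edgeR 4.0.16 (quasi-likelihood, TMM, low counts filtered; 10 replicated libraries in 1 fit), with DESeq2 1.42.0 as an alternative, at an adjusted p of 0.05 over all tested genes, and shares with 2-sided exact permutation tests. WT_1 has no replicate and enters no test. Cell sets were compared with the library as a block. Scripts ran in Python 3.11.15 with scipy 1.17.1 and were tested on simulated data. Likely doublets were the barcodes with the highest Scrublet scores (scanpy 1.11.5), marked at 0.8% per 1000 barcodes, and were left out only in an alternative.

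Genes named between genotypes are Tert, Cdkn1a, called genes and, where fewer than 3 were called in a direction, up to 5 of smallest p whose higher group reached 20 CPM and whose groups did not overlap; between cell sets, the 10 largest called changes of at least 50 CPM in each direction and called list members. A few of the genes so named are not reported here. Intervals cover counting error only.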

Additional observations from a re-analysis of the deposited data

Results flagged for a closer look

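A library standing apart was looked for in p21mTert only, since groups of fewer than 4 libraries were not tested; p21Het_2, p21Het_3 and p21mTertCD_1 are thus outside it. Of 77 sets of p21mTert values, 5 had one; chance marks about 1 in 20, or 3.85 of 77. The highest adaptor-positive share of kept barcodes was 1.236% in p21mTert_3, next to 0.8359%. The lowest share of adaptor-positive cells among chosen cells was 74.29% in p21mTert_1, next to 86.67%. The highest share of chosen cells with at least 2 cell-cycle UMIs was 6.098% in p21mTert_3, next to 1.695%. Among genes in adaptor-positive cells, Ifi209 was lowest at 0.0 CPM in p21mTert_2, next to 1.385 CPM. Tgfb1 was lowest at 295.1 CPM in 1 library, next to 327.8 CPM.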

How the results depend on the processing

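Of 146 gene results, 118 kept their direction and their side of the threshold under every alternative run, and 2 changed sign at least once (2745 alternatives in all). Many results between genotypes did not pass in the main fit, so keeping their side means that they stayed uncalled. Some genes were not tested in every alternative, and a missing fit was not counted as a change. The adaptor-positive set and the sets without p21Het_2 and p21mTertCD_1 were chosen after seeing the data. Without p21mTertCD_1, 1 library stands for its group. Libraries held 38 to 162 chosen cells, and the part of that number in the counts of called genes was not tested.

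The share of chosen cells, p21mTert minus p21Het, was -0.810 percentage points with barcodes thinned to 1000 UMIs (exact permutation p = 0.0179). For p21mTert minus p21mTertCD it was -0.874 when thinned (exact permutation p = 0.0476), 0.0625 without likely doublets, 0.414 among barcodes with a Ptprc UMI, 0.332 with 10 or more Chil3 UMIs, 0.267 for adaptor-positive cells and 0.329 without p21Het_2 and p21mTertCD_1. For p21mTertCD minus p21Het it was 0.0632 when thinned. The share under the Gpnmb, Spp1 and Ctsk limit, p21mTert minus p21mTertCD, was 17.5 without doublets, 17.6 for adaptor-positive cells and 0.858 on the logit scale, each at an exact permutation p of 0.0476. The share of cells with at least 2 cell-cycle UMIs (here cell-cycle share), p21mTert minus p21Het, was -0.340 without doublets, -1.19 for adaptor-positive cells and -0.274 in numbered libraries. For p21mTert minus p21mTertCD it was -3.04 without doublets, 1.43 with 1 or more UMIs and 0.565 at 1000 UMIs, and for p21mTertCD minus p21Het -1.39 and -0.333 under the last 2 settings.

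Leaving out 1 library gave share differences of -0.667 to -0.168, -0.487 to 0.329 and -0.738 to 0.0772, in the order of contrasts above. In the same order the limit shares differed by 3.37 to 7.96, 13.3 to 17.0 and -12.1 to -7.49. The cell-cycle shares differed by -0.775 to 1.56, -2.25 to -0.727 and 0.877 to 2.68.

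Called genes in all chosen cells, p21mTert minus p21mTertCD, numbered 3 by DESeq2, 1 without a filter, 3 with the 2 groups alone, 4 with under 5 Gpnmb, Spp1 and Ctsk UMIs, 1 for adaptor-positive cells and 3 without the 2 libraries; p21mTertCD minus p21Het gave 1 with under 5 and 2 without the 2 libraries. In adaptor-positive cells, p21mTert minus p21Het gave 17 by DESeq2, 8 without a filter, 1 with a term for the label set, 2 in numbered libraries and 4 without the 2 libraries. For p21mTert minus p21mTertCD the counts were 8, 3, 51 with the 2 groups alone, 3 in numbered libraries, 0 without doublets and 4 without the 2 libraries, and for p21mTertCD minus p21Het 3, 2 and 2. Without 1 library the counts were 0 to 0, 0 to 3 and 0 to 2 in chosen cells and 0 to 9, 1 to 48 and 0 to 9 in adaptor-positive cells; 48 came without p21Het_2. Against Gpnmb-high cells, all chosen cells gave 2842 by DESeq2, 3283 without a filter, 850 without doublets and 827 to 1425 without 1 library, and adaptor-positive cells 471 in the depth range and 652 to 1017. Against C1q cells the ranges were 4170 to 4595 and 4253 to 4767.

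Cdkn1a, p21mTert minus p21Het, changed sign: in chosen cells it was 0.0162 without a filter, 0.1768 in numbered libraries and 0.0734 with under 5 Gpnmb, Spp1 and Ctsk UMIs, and in adaptor-positive cells 0.0414 in numbered libraries. Without 1 library it ran from -0.2115 to 0.1289 in chosen cells (lowest without p21Het_2, highest without p21Het_3) and from -0.2159 to 0.0662 in adaptor-positive cells (lowest without p21mTert_4, highest without p21mTert_5). Deviations from the group mean had correlations of 0.0381, -0.058, -0.4501 and 0.0088 between same-numbered libraries. In a group of 2, such as p21mTertCD, the deviations mirror each other. These few values thus cannot decide whether the numbers pair the libraries. With the replicate number as a block, adaptor-positive cells gave 10 and 0 called genes for p21mTert minus p21Het and p21mTert minus p21mTertCD, and Cdkn1a was 0.2654 in chosen and 0.0875 in adaptor-positive cells. The cause was not tested. An alternative without cells holding 2 or more UMIs of another class left 0 to 4 cells per library and was not run.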
